A study of Mus musculus with 20 samples.

Results

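The comparison described here is the response of wild-type (WT) regulatory T cells (Tregs) to 8 h of stimulation in the Rag experiment of a mouse array study. Its members are 4 of the study's 20 arrays, chosen by their titles: 2 arrays of WT Tregs stimulated for 8 h and 2 arrays of unstimulated WT Tregs. The cells were C57BL/6 CD4+CD25+ Tregs, enriched with CD4 beads and then sorted as CD25+CD4+ cells. The labels give neither the stimulus, nor the animals' age and sex, nor whether RNA came from separate or pooled animals, nor whether the unstimulated cells were cultured. The same experiment held RagAB KO Tregs on 4 arrays (2 stimulated for 8 h, 2 unstimulated), described only as a genotype, with no allele or Cre line named. The Rheb experiment held 6 arrays of WT Tregs (3 stimulated, 3 unstimulated), with no duration given, and 6 arrays of Rheb1/2 KO Tregs. Both are used here only where they show how the 8 h response differs.

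Tregs are CD4 T cells that restrain other immune cells. When their T cell receptor is engaged, calcium, MAP kinase and NF-kB signals switch on a first wave of transcription factors, such as the Egr, Nr4a and AP-1 families, and later genes for growth and effector function. In the same period genes that keep a T cell resting and circulating are switched off, and amino acid and growth factor signals reach mTORC1 through the Rag and Rheb GTPases.

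Values are deposited log2 signals. Over 19505 named genes the array medians were 7.52 and 7.55 in stimulated cells and 7.52 and 7.18 in unstimulated cells. The second unstimulated array was therefore dim, with 2316 genes brighter than 95% of the negative control probes on that array. On this measure the stimulated arrays had 3540 and 3548 genes and the other unstimulated array had 3220. Across all genes the median log2 change (stimulated minus unstimulated) was 0.21, and 0.12 after quantile normalization of the experiment's 8 arrays. Of the 82 genes named below under the naming rule, 67 were called as deposited, and all 67 were also called in the same direction after quantile normalization.

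The sorted cells carried Cd3e and Ctla4 transcripts at high levels and Il2ra at a lower level. Cd3e, a chain of the T cell receptor complex, had signals of 12.12 and 11.75 in stimulated cells and 12.48 and 11.65 in unstimulated cells. Ctla4, an inhibitory receptor that Tregs use, had signals of 12.36 and 12.03 in stimulated cells and 11.50 and 11.28 in unstimulated cells. Il2ra, which encodes CD25, had signals of 8.53 and 8.33 in stimulated cells and 7.84 and 7.40 in unstimulated cells. On none of the 4 arrays was Il2ra brighter than 95% of the negative control probes. Foxp3, the factor that defines the lineage, had no probe set named for it alone and was not analysed here. Markers of other cell types were 80 genes in 10 lists (macrophages, dendritic cells, B cells, natural killer cells, CD8 T cells, conventional CD4 T cells, neutrophils, erythroid cells, mast cells, stroma and endothelium). Of these, 47 had both group means below the median of each of the 4 arrays, a share that was not set against all genes. Some were bright, such as the mast cell marker Kit, at 10.9 and 10.6 in stimulated and 10.5 and 9.2 in unstimulated cells. As deposited none of the 80 rose and 2 fell, Dapl1 and Pecam1 (-1.58 ± 0.29), against 0.523% falls over all genes. After quantile normalization none rose and 4 fell (all genes, 2.14%), which added Actn1 (-0.88) and Prf1 (-1.04). The summed linear signal of the 11 macrophage markers was 889 and 1018 in stimulated cells and 933 and 698 in unstimulated cells. That of the 9 B cell markers was 1383 and 1602 in stimulated cells and 1705 and 1028 in unstimulated cells. For these lists the groups overlapped, as for the other lists except 3, whose part in the results was not tested. The 6 conventional CD4 markers summed to 1574 and 1414 in stimulated cells and 2717 and 1799 in unstimulated cells. The 10 stromal and endothelial markers, Pecam1 among them, summed to 1537 and 1721 in stimulated cells and 2927 and 2019 in unstimulated cells. Pecam1 had the highest unstimulated signals of that list (10.90 and 10.29) and weighs most in its sums. Of the 10 changes 8 were above 0, with a median of 0.34, so the list as a set was not lower in stimulated cells. The 8 mast cell and basophil markers summed to 2673 and 2330 in stimulated cells and 2233 and 1068 in unstimulated cells.

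Stimulation changed 195 of 19505 genes (1.00%) at an adjusted p below 0.05 in the limma fit of the 8 arrays, with Benjamini-Hochberg adjustment over all genes. Of these, 93 rose (0.477%) and 102 fell (0.523%). Counts of called list members given below as deposited stand against these shares over all genes. The absolute log2 changes ran between 1.09 and 3.53. Quantile normalization gave 668 called genes (3.42%), of which 250 rose (1.28%) and 418 fell (2.14%), so that 37.4% of calls were rises instead of 47.7%. Centring each array on its median gave 149 rises and 373 falls. Of the 195 genes, 194 were called on the quantile-normalized scale too, all in the same direction. Without the dim unstimulated array 13 genes were called, 2 higher and 11 lower. A p-value measures only the spread between these arrays, since nothing in the labels says that they came from separate animals.

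The largest rises included a cell cycle inhibitor and several transcription factors. Cdkn1a, which encodes the inhibitor p21 and stands in the list of D cyclins and CDK inhibitors, had signals of 11.29 and 10.89 in stimulated cells and 8.00 and 7.11 in unstimulated cells. The arrays did not overlap, and the log2 change of 3.53 ± 0.31 (SE, n = 2 a group, adjusted p = 0.000558 by limma) was the largest among the genes eligible for naming. Irf4, the transcription factor that Tregs need to become effector cells, had signals of 11.70 and 11.59 in stimulated cells and 9.46 and 8.44 in unstimulated cells. It rose by 2.70 ± 0.30 (adjusted p = 0.00191, limma), a 6.48-fold rise. Nr4a3, an orphan nuclear receptor whose mRNA follows receptor signalling, had signals of 12.39 and 12.05 in stimulated cells and 10.16 and 9.35 in unstimulated cells. Its log2 change was 2.46 ± 0.30 (adjusted p = 0.00297, limma). Both stimulated arrays of all 3 genes lay above both unstimulated arrays, as they did in one direction or the other for 47.5% of all genes.

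**Figure D1:**
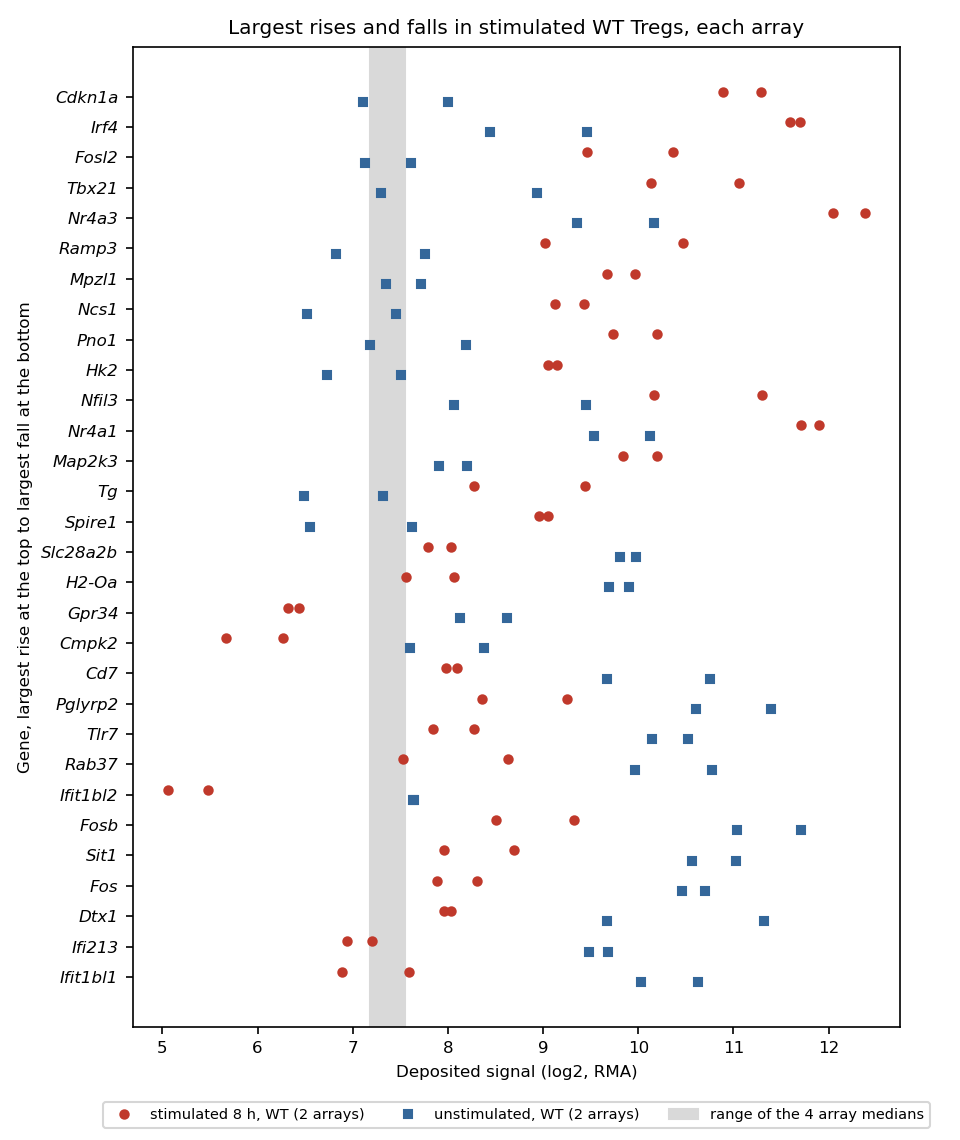
Deposited log2 signal on each of the 4 WT arrays for the 15 largest rises and 15 largest falls, with stimulated arrays (circles) above unstimulated arrays (squares) in each row. Separate groups were a condition for naming these 30 genes, with Cdkn1a changed by 3.53 at the top and Ifit1bl1 changed by -3.09 at the bottom. The grey band is the range of the 4 array medians.

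Of 35 measured genes of the list induced by T cell receptor engagement, 7 rose and none fell, and the median change was 0.80 against 0.21 over all genes. After quantile normalization 12 rose and the median was 0.57 against 0.12. Besides Irf4 and Nr4a3, the rises included Nr4a1 (1.97), Egr2 (1.65), a zinc finger factor that restrains T cell activation, Irf8 (1.63) and Tnfrsf9 (1.60), the costimulatory receptor 4-1BB. Egr2 had signals of 11.56 and 11.72 in stimulated cells and 10.59 and 9.38 in unstimulated cells (adjusted p = 0.0445, limma). Myc, which drives growth and ribosome production, had signals of 12.27 and 12.08 in stimulated cells and 11.52 and 10.58 in unstimulated cells. Its change of 1.12 ± 0.31 missed the threshold as deposited (adjusted p = 0.122, limma) and passed it after quantile normalization (0.90, adjusted p = 0.0318). Cd69, an early activation antigen, had a change of 0.50 ± 0.31 that did not pass (adjusted p = 0.424, limma).

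The effector Treg list had 29 measured genes, of which 5 rose and none fell as deposited (all genes, 0.477% and 0.523%). Its median change was 0.42 against 0.21 over all genes. After quantile normalization 6 rose and 2 fell. Tbx21, the factor T-bet, had signals of 11.06 and 10.13 in stimulated cells and 8.93 and 7.29 in unstimulated cells. It rose by 2.48 ± 0.43 (adjusted p = 0.0155, limma), although the 2 unstimulated arrays lay far apart. Ccr8, a chemokine receptor of effector Tregs, rose by 1.86 ± 0.33 (adjusted p = 0.018, limma), and Nfil3, a basic leucine zipper factor, rose by 1.97 ± 0.41 (adjusted p = 0.041, limma). None of the 18 core Treg genes was called as deposited. Among them Il2ra, the high-affinity IL-2 receptor chain CD25, changed by 0.80 ± 0.24 (adjusted p = 0.144), Ctla4 by 0.81 ± 0.24 (adjusted p = 0.159) and Tnfrsf18, the receptor GITR, by 0.85 ± 0.33 (adjusted p = 0.27), all by limma. Ikzf2, the Treg factor Helios, changed by -0.68 ± 0.35 (adjusted p = 0.369, limma). After quantile normalization 1 core gene rose and 2 fell, Dusp4 (1.28), Entpd1 (-1.45) and Itgae (-1.81), which are named here because they are those 3.

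The lists of chemokine ligand and cytokine genes held called rises and no called falls as deposited. Of 14 chemokine ligand genes, 3 rose and none fell (all genes, 0.477% and 0.523%). The 3 were Ccl20, a ligand of CCR6, Ccl1, a ligand of CCR8, and Ccl4, an inflammatory chemokine. Ccl20 had signals of 8.37 and 8.84 in stimulated cells and 7.06 and 6.70 in unstimulated cells, a change of 1.73 ± 0.25 (adjusted p = 0.00806, limma). Of 32 cytokine genes 2 rose, Tnfsf8 (CD30 ligand, 1.45 ± 0.30) and Il17f (1.09 ± 0.23). Il17f, Ccl20, Ccl1 and Ccl4 were dim, and on none of the 4 arrays were they brighter than 95% of the negative control probes. After quantile normalization 4 chemokine ligand genes rose, and 5 cytokine genes rose and 1 fell. Il10, an inhibitory cytokine of effector Tregs, changed by 1.58 ± 0.55, with signals of 9.86 and 8.39 in stimulated cells and 8.57 and 6.52 in unstimulated cells. Those arrays overlapped and the change did not pass (adjusted p = 0.221, limma). Il2 changed by 0.71 ± 0.24 (adjusted p = 0.218, limma), with all 4 arrays below 7. In the list of IL-2 receptor, STAT5 and SOCS genes, 1 of 16 rose, Cish (1.34 ± 0.29, adjusted p = 0.0496, limma), which STAT5 induces as a feedback inhibitor, and 3 rose and 1 fell after quantile normalization.

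Within the AP-1 family, the leucine zipper factors that bind as dimers, members moved in opposite directions. Fosl2 had signals of 10.36 and 9.46 in stimulated cells and 7.61 and 7.13 in unstimulated cells, and it rose by 2.54 ± 0.30 (adjusted p = 0.00237, limma). Atf3, a stress-induced member, rose by 1.90 ± 0.28 (adjusted p = 0.00857, limma). Fos had signals of 8.31 and 7.88 in stimulated cells and 10.71 and 10.46 in unstimulated cells, a change of -2.49 ± 0.28 (adjusted p = 0.00191, limma). Fosb changed in the same way, by -2.46 ± 0.40 (adjusted p = 0.0112, limma). The other 13 of the 17 measured members were not called, among them Jun at -0.60 and Junb at -0.09. Fos, Fosb and Zfp36, a decay factor for AU-rich mRNAs that changed by -1.26 ± 0.24, also belong to the 23 measured genes known to be induced when tissue is dissociated. Of that list 2 rose (Nr4a1 and Atf3) and 3 fell; whether handling of the cells moved with stimulation was not tested.

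Genes for assembling ribosomes included several rises, and genes for the ribosome's own proteins none. Of 41 measured ribosome biogenesis genes, 5 rose and none fell, and the change was above 0 in all 41 on both scales. The median change was 0.90 as deposited and 0.73 after quantile normalization, where 14 rose. Nop16 had signals of 11.94 and 12.05 in stimulated cells and 10.85 and 10.05 in unstimulated cells, a rise of 1.55 ± 0.28 (adjusted p = 0.0197, limma). Nolc1, a nucleolar chaperone of small nucleolar ribonucleoproteins, rose by 1.54 ± 0.26, Nop2, an rRNA methyltransferase, by 1.5 ± 0.28, Rrp9 by 1.27 ± 0.24 and Wdr12 by 1.20 ± 0.26. Pno1, an assembly factor of the small subunit, was outside that list and rose by 2.28 ± 0.39 (adjusted p = 0.0141, limma). None of 30 cytosolic ribosomal protein genes was called, with a median of 0.17 as deposited and -0.02 after quantile normalization. Their changes too were above 0 in all 30 as deposited, but in 14 after quantile normalization.

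**Figure D2:**
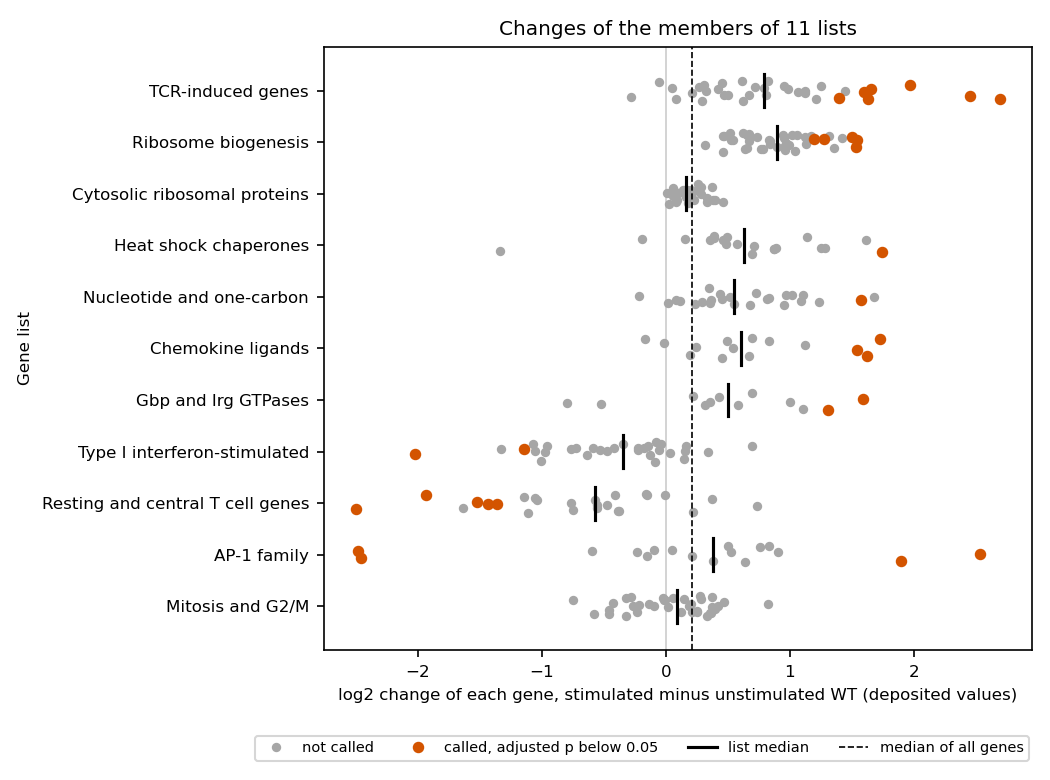
Log2 change (stimulated minus unstimulated WT, deposited values) of every measured member of 11 lists, with called genes in orange, list medians as black bars and the median of all genes, 0.21, as a dashed line. Ribosome biogenesis and cytosolic ribosomal protein genes all lie above 0, the ribosomal protein genes near the dashed line, and AP-1 members lie on both sides of that line.

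Further rises had no list in common. Mpzl1, a cell surface glycoprotein that binds the phosphatase SHP2, had signals of 9.97 and 9.67 in stimulated cells and 7.71 and 7.35 in unstimulated cells, a rise of 2.29 ± 0.26 (adjusted p = 0.00191, limma). Ramp3, a partner of calcitonin-type receptors, rose by 2.46 ± 0.46, although its stimulated arrays, at 10.47 and 9.02, differed by more than those of Mpzl1. Ncs1, a calcium sensor, rose by 2.29 ± 0.30, Map2k3, an activator of p38 MAP kinase, by 1.97 ± 0.33, Spire1, an actin nucleator, by 1.92 ± 0.40 and Tg, thyroglobulin, by 1.96 ± 0.36. Tgif1, a repressor of TGF-beta target genes, rose by 1.38 ± 0.24, as 1 of 20 genes of TGF-beta activation and signalling. Tnfrsf10b, a death receptor, rose by 1.11 ± 0.24, and it and Tnfrsf9 were the 2 rises among 14 TNF receptor family genes. Neither list had a called fall as deposited, but after quantile normalization 2 TGF-beta genes and 1 TNF receptor family gene fell. For Ncs1, Spire1, Tg and Ccl4 the signal of 1 unstimulated array lay below the median of its negative control probes, which leaves how far they rose uncertain.

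Metabolic genes passed the threshold in few members of each list. Hk2, the hexokinase that opens glycolysis, had signals of 9.15 and 9.05 in stimulated cells and 7.51 and 6.73 in unstimulated cells, a rise of 1.98 ± 0.34 (adjusted p = 0.0145, limma), and it was 1 of 26 glycolysis genes called as deposited. Srm, spermidine synthase, rose by 1.67 ± 0.36 (adjusted p = 0.048) and was 1 of 8 polyamine genes. Shmt1 of one-carbon metabolism rose by 1.58 ± 0.30, as 1 of 25 nucleotide and one-carbon genes, a count of 6 after quantile normalization. Slc7a1, the cationic amino acid transporter, rose by 1.51 ± 0.31 (adjusted p = 0.0351), as 1 of 17 amino acid transporter genes. Eef1e1, a scaffold of the tRNA synthetase complex, rose by 1.25 ± 0.24, as 1 of 32 translation factors and synthetases. Hsd17b7 of sterol synthesis rose by 1.18 ± 0.26, as 1 of 19. After quantile normalization 6 translation factors and synthetases rose, 3 glycolysis genes rose and 1 fell, 2 polyamine and 2 sterol genes rose, and 1 amino acid transporter rose and 1 fell. None of the 42 respiratory chain genes was called. Hsph1, a co-chaperone of the HSP70 system, rose by 1.74 ± 0.33 and Bcl2l1, the anti-apoptotic protein BCL-XL, by 1.68 ± 0.24. Of 35 genes of the mTOR complexes and amino acid sensing none rose and 1 fell, Sesn1, an inhibitor of mTORC1, with signals of 8.88 and 8.78 in stimulated cells and 10.37 and 10.57 in unstimulated cells (-1.65 ± 0.26, adjusted p = 0.00948, limma).

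As deposited, cell cycle genes showed no called change besides Cdkn1a. None of 36 mitosis genes and none of 36 DNA replication genes was called. After quantile normalization 1 DNA replication gene fell. Cdkn2d, a CDK inhibitor of the same list as Cdkn1a, changed by -1.20 as deposited (adjusted p = 0.0715, limma). Its change after quantile normalization was -1.30 and passed the threshold (adjusted p = 0.00883, limma). Mki67, a proliferation marker, varied between replicates more than between groups, with signals of 9.57 and 7.18 in stimulated cells and 9.81 and 8.43 in unstimulated cells.

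**Figure D3:**
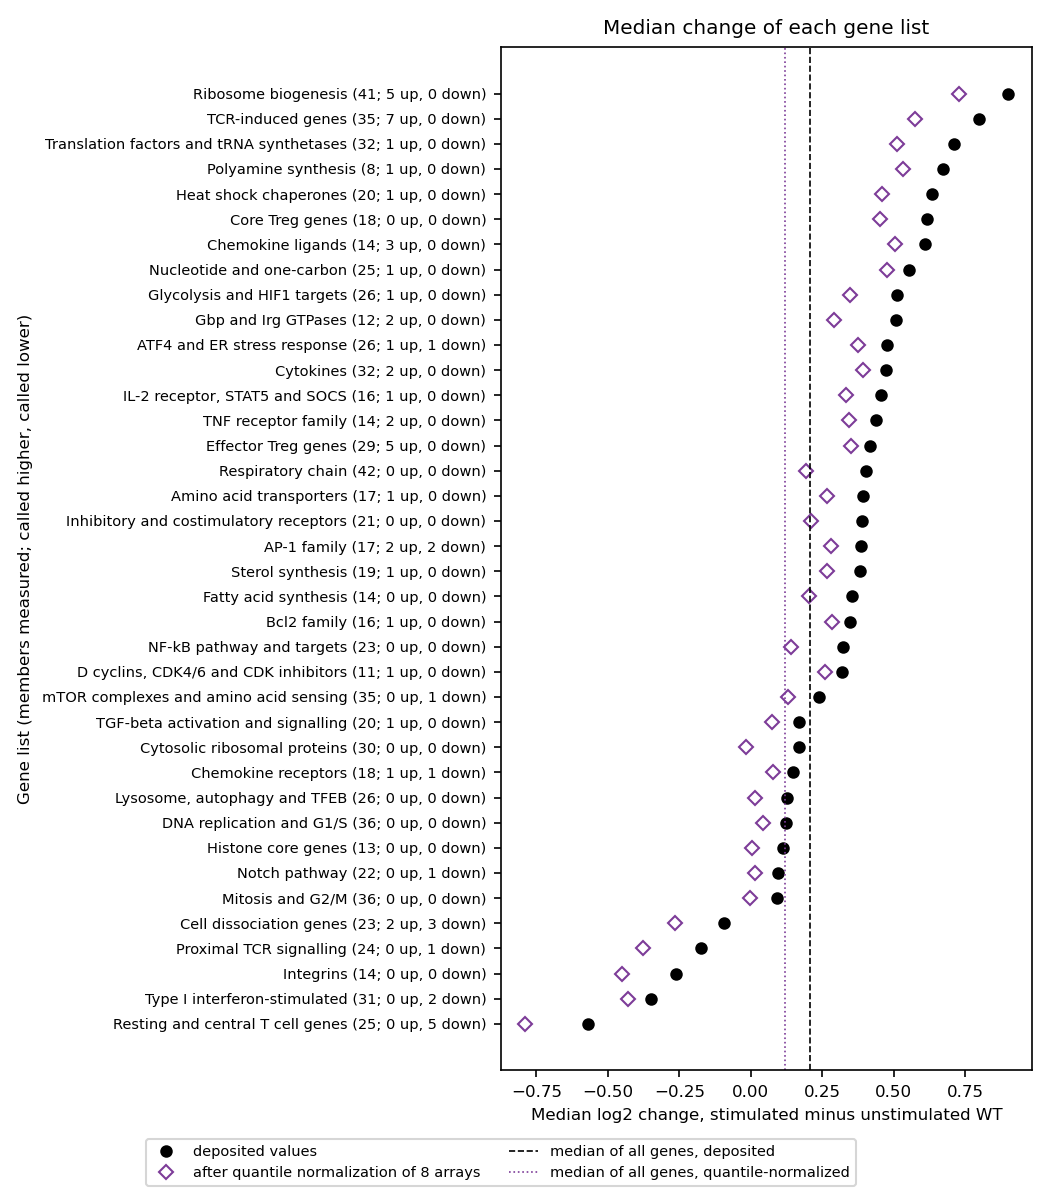
Median log2 change (stimulated minus unstimulated WT) of each programme list, as deposited (filled circles) and after quantile normalization (open diamonds), with the number of called members in each row. The lines are the medians of all genes, 0.21 and 0.12. Ribosome biogenesis has the highest median, 0.90, and resting and central T cell genes have the lowest, -0.57.

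Of 25 measured genes of resting and circulating T cells, none rose and 5 fell as deposited (all genes, 0.523%), with a median of -0.57, and 10 fell after quantile normalization, with a median of -0.79. Because each array measured the RNA of many cells, fewer cells of a kind and less RNA per cell cannot be told apart here. Dtx1, an E3 ubiquitin ligase of the Notch pathway, had signals of 7.96 and 8.03 in stimulated cells and 11.32 and 9.67 in unstimulated cells, a change of -2.50 ± 0.39 (adjusted p = 0.00948, limma). Pik3ip1, an inhibitor of PI3 kinase, changed by -1.93 ± 0.30, S1pr1, the receptor that guides T cells out of lymph nodes, by -1.52 ± 0.27, Klf3 by -1.44 ± 0.24 and Dapl1 by -1.36 ± 0.22. The conventional CD4 markers, of which Dapl1 is 1 of 6, also had lower sums in stimulated cells (1574 and 1414, against 2717 and 1799 in unstimulated cells), and their part in these falls was not tested. Klf2, the factor that maintains S1pr1, changed by -0.48 ± 0.24 and did not pass (adjusted p = 0.366, limma), and Ccr7, the lymph node homing receptor, changed by 0.38 ± 0.26 (adjusted p = 0.471, limma). Of 24 proximal T cell receptor signalling genes, 1 fell, Themis (-1.58 ± 0.30), which tunes receptor signals. Sit1, a transmembrane adaptor that dampens them, had signals of 8.70 and 7.96 in stimulated cells and 11.03 and 10.57 in unstimulated cells, a change of -2.47 ± 0.29 (adjusted p = 0.0023, limma).

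Other large falls were in genes with no list in common. Cd7, a T cell surface glycoprotein, changed by -2.18 ± 0.32, Rab37 by -2.29 ± 0.35 and Pglyrp2, a peptidoglycan amidase, by -2.20 ± 0.35. H2-Oa, 1 chain of the H2-O protein that restrains peptide loading on class II molecules, had signals of 8.07 and 7.56 in stimulated cells and 9.90 and 9.69 in unstimulated cells, a change of -1.98 ± 0.28. H2-Ob, the other chain, named after its values were seen, changed by -1.95 ± 0.26 (adjusted p = 0.00455, limma). Slc28a2b, a nucleoside transporter gene, changed by -1.98 ± 0.26. Gpr34, a lysophosphatidylserine receptor, fell, with signals of 6.31 and 6.43 in stimulated cells and 8.12 and 8.62 in unstimulated cells. The stimulated signals lay near the medians of the negative control probes on those arrays, 6.33 and 6.14, so no fold is given. Dnajb9, a chaperone of the endoplasmic reticulum, changed by -1.19 ± 0.25, while Atf3, of the same 26-gene list of ATF4 and endoplasmic reticulum stress genes, was its 1 rise. Tlr7, a sensor of single-stranded RNA, had signals of 8.28 and 7.85 in stimulated cells and 10.53 and 10.15 in unstimulated cells, a change of -2.28 ± 0.25 (adjusted p = 0.00191, limma).

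Among interferon-inducible genes, falls were called in the type I list and rises in the GTPase list. Type I interferon induces Ifit, HIN-200 and ISG15-type genes through the element bound by ISGF3, while guanylate-binding proteins and immunity-related GTPases answer mainly to interferon-gamma. Of 31 measured type I interferon-stimulated genes none rose and 2 fell, Cmpk2 (-2.03 ± 0.29, adjusted p = 0.00767, limma) and Isg15 (-1.14 ± 0.25, adjusted p = 0.0464, limma). The list's median was -0.35, and 6 fell after quantile normalization, with a median of -0.43. Among the 15 largest falls, 3 were relatives outside that list. Ifit1bl1, an Ifit-family gene, had signals of 6.89 and 7.59 in stimulated cells and 10.63 and 10.03 in unstimulated cells, a change of -3.09 ± 0.29 (adjusted p = 0.000684, limma). Ifi213, of the HIN-200 family, had signals of 6.93 and 7.20 in stimulated cells and 9.68 and 9.49 in unstimulated cells, a change of -2.52 ± 0.25 (adjusted p = 0.00105, limma). Ifit1bl2 had signals of 5.06 and 5.47 in stimulated cells and 7.65 and 7.63 in unstimulated cells, a change of -2.37 ± 0.27. Its stimulated signals, and those of Cmpk2 at 6.26 and 5.67, lay below the negative control medians of 6.33 and 6.14, so how far either fell is uncertain. Ifi208, named after its values were seen, changed by -1.88 ± 0.29 (adjusted p = 0.00899, limma). Of 12 guanylate-binding and immunity-related GTPase genes, 2 rose and none fell, Iigp1 (1.59 ± 0.34) and Gbp2, which had signals of 9.98 and 9.99 in stimulated cells and 8.82 and 8.53 in unstimulated cells (1.31 ± 0.24, adjusted p = 0.0198, limma). In the same list Gbp8 changed by -0.80 and Gbp9 by -0.53, and neither passed (adjusted p = 0.197 and 0.317, limma). Ifit1bl1 with Ifit1bl2, and Ifi213 with Ifi208, are similar in sequence, so their probe sets may share signal, which was not tested.

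The 250 bases before the RefSeq transcription start of these genes (GRCm38.p6) were searched on both strands for GAAA, any 2 bases and GAAA again, a core of the interferon-stimulated response element (ISRE). Windows were shown because they hold a match, 5 of them from genes named above that fell and 1 from Gbp2, which rose. The Cmpk2 window held no match, and Iigp1 was not searched. Capitals mark each match, and overlapping matches run together.
Ifit1bl1 (fell, chr19:34601969-34602218, minus strand): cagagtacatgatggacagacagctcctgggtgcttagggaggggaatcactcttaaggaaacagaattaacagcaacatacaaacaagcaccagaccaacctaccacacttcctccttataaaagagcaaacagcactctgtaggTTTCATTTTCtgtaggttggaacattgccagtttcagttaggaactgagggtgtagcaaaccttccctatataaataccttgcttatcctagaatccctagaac
Ifit1bl2 (fell, chr19:34640744-34640993, minus strand): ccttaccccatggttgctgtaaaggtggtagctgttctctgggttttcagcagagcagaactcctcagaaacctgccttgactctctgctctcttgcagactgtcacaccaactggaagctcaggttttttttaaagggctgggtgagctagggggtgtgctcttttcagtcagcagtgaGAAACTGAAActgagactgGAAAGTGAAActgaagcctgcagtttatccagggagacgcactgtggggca
Ifi213 (fell, chr1:173599273-173599522, minus strand): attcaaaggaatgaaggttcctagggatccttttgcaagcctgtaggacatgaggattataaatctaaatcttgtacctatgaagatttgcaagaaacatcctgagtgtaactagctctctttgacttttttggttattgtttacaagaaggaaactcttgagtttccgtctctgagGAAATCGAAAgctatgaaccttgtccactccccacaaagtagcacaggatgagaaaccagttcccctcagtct
Ifi208 (fell, chr1:173673415-173673664, plus strand): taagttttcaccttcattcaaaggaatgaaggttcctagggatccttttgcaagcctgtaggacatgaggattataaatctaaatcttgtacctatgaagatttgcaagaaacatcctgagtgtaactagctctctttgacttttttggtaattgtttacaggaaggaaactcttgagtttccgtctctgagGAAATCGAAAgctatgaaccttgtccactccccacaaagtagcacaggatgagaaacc
Isg15 (fell, chr4:156200819-156201068, minus strand): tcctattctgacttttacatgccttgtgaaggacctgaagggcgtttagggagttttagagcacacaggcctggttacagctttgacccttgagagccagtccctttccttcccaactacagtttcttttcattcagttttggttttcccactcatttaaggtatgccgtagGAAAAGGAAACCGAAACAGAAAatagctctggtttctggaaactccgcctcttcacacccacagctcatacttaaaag
Gbp2 (rose, chr3:142620413-142620662, plus strand): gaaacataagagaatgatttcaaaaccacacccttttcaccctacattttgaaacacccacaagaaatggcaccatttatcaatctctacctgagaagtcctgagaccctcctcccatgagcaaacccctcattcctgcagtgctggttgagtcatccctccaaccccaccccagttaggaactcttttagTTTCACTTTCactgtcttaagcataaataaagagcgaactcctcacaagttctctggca
The motif was in 12 of 120 start windows of falling genes (10%), in 2 of 109 of rising genes (1.83%) and in 566 of 19143 of all genes (2.96%). Windows of the type I interferon list held it in 10 of 26 (38.5%). The E-box CACGTG, which MYC binds, was in 8.33% of windows of falling genes, 6.42% of rising genes and 6.88% of all genes, and in 1 of 40 windows of ribosome biogenesis genes (2.50%). The AP-1 site TGANTCA was in 3.33% of windows of falling genes, 8.26% of rising genes and 6.26% of all genes. These are letter matches in windows, some genes have several windows, and no test was made of them.

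The response of RagAB KO Tregs, on other arrays of the same experiment, had the same sign as the WT response for 188 of the 195 genes. The targeted gene Rraga had signals of 7.17 and 7.50 in stimulated and 6.67 and 6.99 in unstimulated KO cells, against 9.76 and 9.28 in stimulated and 9.19 and 9.33 in unstimulated WT cells. In KO cells 258 genes were called (1.32%), among them 47 of the 93 rising and 17 of the 102 falling genes. The median change of the 93 rising genes was 1.23 in KO cells, and that of the 102 falling genes was -0.74. No gene had a called difference between the WT and KO responses (limma, lowest adjusted p = 0.728, 1202 genes at an unadjusted p below 0.05), and no gene's change is therefore called particular to WT cells. Ifi213 had signals of 7.68 and 8.21 in stimulated and 8.47 and 8.64 in unstimulated KO cells, a KO change of -0.61 and a difference of -1.91 ± 0.36 that did not pass (adjusted p = 0.728, limma). Ccl20 had a KO change of 0.04 and a difference of 1.69 ± 0.36 (adjusted p = 0.728, limma). Other genes changed more in KO cells, again without passing. Gbp2 had a KO change of 2.68 and a difference of -1.37 ± 0.34, and Iigp1 a KO change of 3.01 and a difference of -1.42 ± 0.47 (adjusted p = 0.728 for both, limma).

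The WT response of the Rheb experiment rests on arrays that share none with this one. Its groups follow the titles and source names, but the treatment field of the 3 stimulated WT arrays reads unstimulated, so each Rheb value and each difference given here holds only if the titles are right. It had 1828 called genes (9.37%), and 129 of them were among the 195, which is 66.2% of the 8 h calls and 7.06% of the Rheb calls. The Rheb calls were 875 rises (4.49%) and 953 falls (4.89%). Of the 129, 48 rose and 79 fell in both, and 2 went opposite ways. The sign was shared by 101 of the 102 falling genes and 81 of the 93 rising genes. Across genes, which are not independent replicates, the changes correlated at r = 0.49 over all genes. Fos changed by -2.49 here and -2.72 in the Rheb experiment, and Dtx1 by -2.50 here and -2.31 there.

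**Figure D4:**
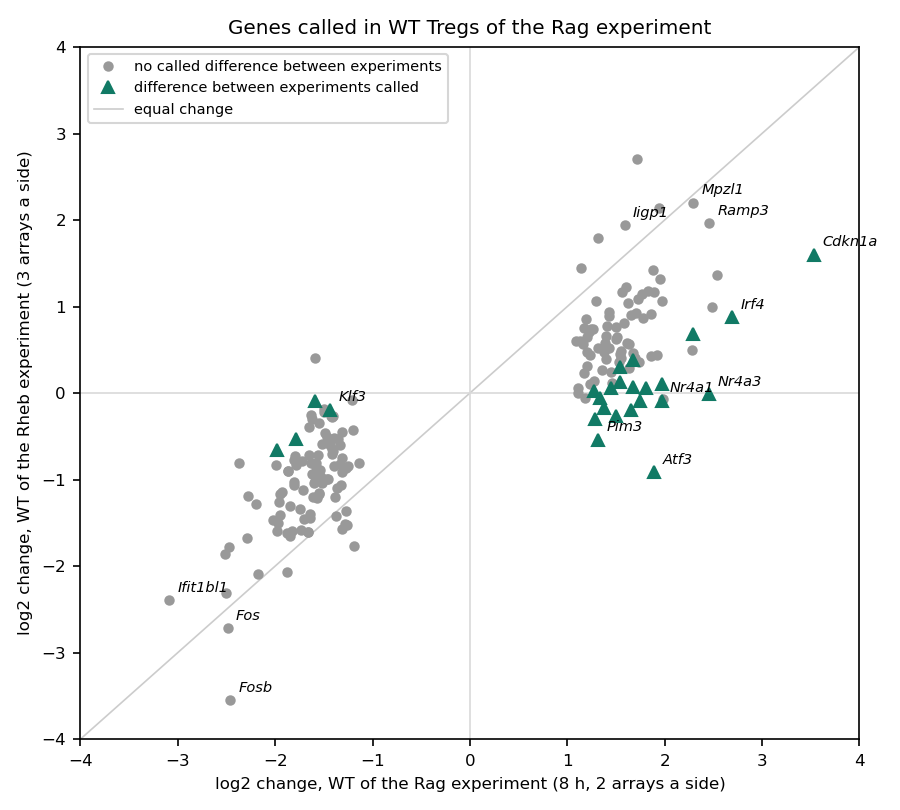
Log2 change of the 195 called genes in WT Tregs of the Rag experiment (horizontal axis) against the WT change in the Rheb experiment (vertical axis). Triangles mark the 25 genes with a called difference between experiments, and most of them are rises that lie at or near 0 on the vertical axis, such as Nr4a3 at 2.46 and -0.01.

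Several early activation genes responded differently in the 2 experiments. The difference of the changes (Rag minus Rheb experiment), tested in 1 limma fit of all 20 arrays, was called for 63 genes (0.323%), 55 higher and 8 lower. Nr4a3 averaged 11.46 in stimulated and 11.48 in unstimulated cells of the Rheb experiment, a change of -0.01, so the difference was 2.47 ± 0.29 (adjusted p = 0.000226, limma). Nr4a1 changed by -0.09 there, a difference of 2.06 ± 0.26. Atf3 changed there by -0.92 ± 0.18 (adjusted p = 0.00481, limma) and rose here, a difference of 2.81 ± 0.32. Pim3, a survival kinase named after its values were seen, was the other gene of the 129 called in opposite directions, at 1.32 here and -0.54 there. Irf4 and Cdkn1a rose in both, by 0.88 and 1.60 in the Rheb experiment, and the differences of 1.82 and 1.93 were called. Duration, stimulus, number of arrays and the level of the unstimulated cells all belong to the experiment as a whole, and their parts in these differences cannot be told apart. Without the dim unstimulated array 19 differences were called, and without the other unstimulated array 1968.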

How the data were processed

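RNA of sorted mouse Tregs was amplified, biotin-labelled and hybridised to Clariom S arrays. The deposited values are log2 signals per probe set, made by the authors with RMA in Affymetrix Expression Console 1.1, per the submitters' processing notes. Neither the genome build nor a joint normalization of both experiments is stated there. Background, normalization and summarising of probes were thus done before deposit, and array medians still differed. Of 28846 probe sets, 19572 carried 1 gene, and 2634 transcript probe sets without a gene name were not used. The highest of several probe sets (55 genes) was kept, which left 19505 genes, all tested.

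Groups came from the sample titles. On 6 Rheb experiment arrays, 3 of them WT stimulated, the treatment entry is the opposite of the title; source name and design text side with the title. The main test was limma 3.58.1 in R 4.3.3 on 8 arrays with 4 group means, two-sided, with Benjamini-Hochberg adjustment and a threshold of 0.05. The Rheb response used 12 arrays and the difference between experiments 20. Errors are standard errors. The number of arrays limits the precision. Alternatives were other scalings, a filter on dim genes, another variance prior, other arrays in the fit, the replicate block and each array left out. The main fit was tested on simulated data with independent noise and no dim array. That test therefore does not cover the calls that depend on the dim array.

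The 48 gene lists, with 885 measured entries out of 978, are described by counts and medians, with no test. Named genes are the 15 called genes that rose most and the 15 that fell most, with separate groups and, in the brighter group only, a mean signal above the array medians, up to 6 called members of each list, and a panel of Treg and activation genes. Members and lists were chosen with earlier results of these data known. Promoter windows came from RefSeq's GRCm38.p6 table, which covered 15691 of the genes.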

Additional observations from a re-analysis of the deposited data

Results flagged for a closer look

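No group held 4 or more arrays, and none was searched for an outlying array. A called difference between the WT responses of the Rag and Rheb experiments (limma, 1 fit of 20 arrays) marked 17 of the 82 named genes, 15 of them higher in the Rag experiment. Differences are log2 changes in the Rag experiment minus those in the Rheb experiment.

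Stress and early activation factors had the largest of them: 2.81 for Atf3, 2.47 for Nr4a3 and 2.06 for Nr4a1. Cdkn1a followed at 1.93, Nfil3 at 1.87 and Irf4 at 1.82. Cd69, which changed by -0.94 in the Rheb experiment and changed by 0.50 here without passing the threshold, differed by 1.44.

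Among other genes that rose after 8 h, the difference was 1.84 for Hsph1, 1.60 for Bcl2l1, 1.60 for Ncs1, 1.55 for Tgif1, 1.39 for Cish and 1.39 for Tnfsf8. The ribosome assembly genes Rrp9 and Nolc1 differed by 1.25 and 1.23. The 2 genes with a deeper fall in the Rag experiment were Slc28a2b, at -1.32, and Klf3, at -1.25. The experiments differ as wholes, so a batch and the stimulation cannot be told apart in these values, which also rest on the titles of the Rheb arrays being right.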

How the results depend on the processing

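The number of called genes in the WT response moved by over 1.5 times under most settings. No named called gene reversed, but most settings could not have reversed one. The WT groups of these genes did not overlap, so leaving out 1 array keeps the sign. Settings that neither rescale the arrays nor drop a WT array leave the change as it was. The lack of reversals therefore says little about how firm the changes are. Against 195 (93 higher, 102 lower) as deposited, quantile normalization gave 668 (250 and 418), median centring 522 (149 and 373), removing the dimmest 40% of genes 354 (190 and 164), a trended and robust prior 490 (252 and 238), the 4 WT arrays alone 649 (335 and 314), and all 20 arrays 1930 (1392 and 538). Leaving out 1 array gave 13 to 600 (2 to 308 higher, 10 to 292 lower): 13 without the dim WT unstimulated array 2, 253 (199 and 54) without WT unstimulated array 1, 51 and 23 without WT stimulated arrays 1 and 2, and 600 without either KO unstimulated array. A lone array is then assumed to vary like the other groups. Settings with these arrays left out together were added after seeing the data: without the 2 arrays of lowest median 565 genes were called (427 lower), and 324 (244 lower) with quantile normalization of the other 6. Of 67 named called genes, 10 stayed called without WT unstimulated array 2, and 7 in every one of the 8 leave-one-out fits: Cdkn1a, Irf4, Tlr7, Sit1, Fos, Ifi213 and Ifit1bl1. These 7 were also called under every other alternative. Uncalled genes changed sign when 1 array was left out: Cd3e lay between -0.55 and 0.28 (0.0503 without WT stimulated array 2), Cd4 between -0.76 and 0.093, and Mki67 between -1.94 and 0.45. The cause was not tested.

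Replicate numbers 1 and 2 recur in every group, but the labels tie them to no animal or batch. Deviations of same-numbered WT arrays correlated at 0.23 as deposited. With the replicate block 244 genes were called (121 higher, 123 lower), 64 of the 67 named called genes stayed called, and Tnfrsf10b (adjusted p = 0.0555), Il17f (0.0506) and Isg15 (0.0506, limma) did not. The block gave 762 genes (300 and 462) with quantile normalization too.

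The WT and KO responses differed in 0 genes as deposited, 1 with the filter, 10 with the trended prior, and 0 to 387 when 1 array was left out, with 387 without KO unstimulated array 2. The difference between experiments was called for 63 genes, 123 after quantile normalization of 20 arrays and 52 with the replicate block, and for 19 to 1968 when 1 array was left out.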

Other observations

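Several genes passed the threshold only after quantile normalization of the 8 arrays, and they are named after their values were seen. Il4, the Th2 cytokine, had deposited signals of 9.26 and 7.79 in stimulated cells and 7.22 and 5.75 in unstimulated cells. Its arrays did not overlap between the groups, as for 47.5% of all genes. The change was 2.04 as deposited (adjusted p = 0.0615, limma) and 1.93 after quantile normalization (adjusted p = 0.0329). Shmt2, the mitochondrial serine hydroxymethyltransferase, changed by 1.68 as deposited (adjusted p = 0.0873, limma) and rose by 1.5 after quantile normalization (adjusted p = 0.0225). Il7r, the IL-7 receptor chain that resting T cells carry, changed by -1.64 as deposited (adjusted p = 0.0713, limma) and fell by 1.81 after quantile normalization (adjusted p = 0.0133).

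Among the 195 called genes outside the naming rule, further interferon-inducible genes fell. Epsti1 had signals of 8.25 and 7.94 in stimulated cells and 10.11 and 9.70 in unstimulated cells, a change of -1.81 ± 0.27. Samd9l changed by -1.47 ± 0.24, with a KO change of 0.15, and Slfn5 by -1.31 ± 0.25, with a KO change of -0.36. Tet1, a DNA demethylase, fell by 1.82, and its Rheb experiment change was -1.60. These genes were picked after their values were seen and support nothing.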
